A study of Mus musculus with 12 samples.

Results

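Kidney transcriptomes of hyperuricemic mice given a herbal decoction were compared with those of untreated hyperuricemic mice, across all genes. The treated group (XZSW) received Xin-Zi-Sheng-Wan Decoction and holds 4 libraries, the untreated model group (HUA) holds 4, and both belong to a series of 12 libraries whose other 4 come from control kidneys (CTL). Members were chosen by group label alone, so 8 of 12 libraries are compared. The CTL libraries are shown beside them, and they share in the fit's estimate of spread, so they bear on every p-value. Hyperuricemia was induced with potassium oxonate and hypoxanthine. All samples are whole kidney labelled WT, and the sources used here give no strain, sex, age, dose or duration. Nothing in the labels says that the 4 libraries of a group came from separate mice, so the p-values measure the spread between libraries, which may be technical. The count columns carry the letters N and M, which were tied to HUA and XZSW through the sample descriptions alone, and every direction below rests on that link.

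Urate is the end product of purine breakdown in humans and is degraded further by uricase in mice. Oxonate blocks uricase and hypoxanthine feeds urate production, so together they raise urate, which can damage the proximal tubule. Injured tubule cells lose transporters and metabolic enzymes, switch on repair genes such as Sox9 and Havcr1, and release cytokines and osteopontin (Spp1), a secreted ligand of CD44 and integrins. Spp1, Cd44, Src, Ptk2 (which encodes FAK) and Ctnnb1 (beta-catenin) are the genes named in the study title.

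Library totals ran from 51643999 to 74288100 counts. Levels are CPM, a gene's share of its library's counts after TMM scaling, listed in the order of libraries 1 to 4. A gene rose or fell if edgeR's quasi-likelihood test gave a Benjamini-Hochberg adjusted p below 0.05 over 19772 tested genes. Between XZSW and HUA, 1402 genes rose (7.09%) and 1649 fell (8.34%), which is 15.4% in either direction, and the median log2 change of all tested genes was 0.0075. In FPKM, all 4 XZSW libraries lay above all 4 HUA libraries for 6.27% of tested genes and below them for 12.6%. Falls were more often large: 148 of the fallen genes and 38 of the risen genes changed at least 8-fold. Scaling by library totals gave 836 rises and 2714 falls (23.5% of calls higher, against 46.0%), and it shifted the median of all genes by -0.17. A fit of the 8 HUA and XZSW libraries alone gave 520 rises and 919 falls. The rises numbered 704, 774 and 916 without HUA3, XZSW2 or XZSW3, and the falls 1007 and 1071 without HUA3 or XZSW2. HUA2, HUA3, HUA4, XZSW3 and XZSW4 had a steeper dependence of level on GC content than the other libraries. With that split as a term, 8.49% of tested genes rose and 9.86% fell, and 2806 of the 3051 calls were made again in the same direction. Within the steeper libraries alone 5 genes rose and 36 fell, and within the others 8 and 72. The second of these sets HUA1 alone against XZSW1 and XZSW2, so it assumes that a lone HUA library varies like the XZSW pair. Mitochondrial transcripts took 16.1% ± 1.77 of counts in XZSW, 9.47% ± 1.75 in HUA and 13.1% ± 1.44 in CTL (SD, n = 4 each, exact permutation test of XZSW against HUA, two-sided, p = 0.0286, adjusted 0.0571 over 2 shares, and 0.0286 is the smallest p this design allows). Its part in the other results was not tested.

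The promoters of the largest changes are shown first, for genes that moved together. Ankrd1 encodes a nuclear ankyrin-repeat protein known as a YAP and TEAD target, Krt20 an intermediate filament keratin, Lif a cytokine of the interleukin-6 family and Atf3 a stress-induced transcription factor. Slc22a8, which encodes the organic anion transporter OAT3, stands for the genes that rose. The sequences are RefSeq's, on build GRCm38.p6, from 250 bases before to 50 after the annotated start, 5′ to 3′ on the gene's strand. Capitals mark GGAATG or its reverse complement CATTCC, the TEAD motif, in Ankrd1, Krt20 and Slc22a8, and TGACTCA, the AP-1 motif, in Lif. Atf3 held no match and has no capitals. These 5 genes were picked after matches and gene values were seen.
Ankrd1, chr19:36119795-36120094, minus strand: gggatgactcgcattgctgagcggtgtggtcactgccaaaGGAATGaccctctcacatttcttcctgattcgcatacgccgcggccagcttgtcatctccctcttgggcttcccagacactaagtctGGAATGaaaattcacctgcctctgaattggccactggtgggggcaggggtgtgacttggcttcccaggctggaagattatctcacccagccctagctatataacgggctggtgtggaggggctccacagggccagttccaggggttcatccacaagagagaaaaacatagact
Krt20, chr11:99438104-99438403, minus strand: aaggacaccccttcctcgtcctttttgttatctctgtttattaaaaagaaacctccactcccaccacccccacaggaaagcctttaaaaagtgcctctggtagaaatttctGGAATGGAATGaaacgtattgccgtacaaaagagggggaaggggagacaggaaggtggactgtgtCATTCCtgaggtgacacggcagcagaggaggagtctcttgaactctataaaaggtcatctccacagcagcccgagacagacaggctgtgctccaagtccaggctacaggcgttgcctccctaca
Lif, chr11:4257318-4257617, plus strand: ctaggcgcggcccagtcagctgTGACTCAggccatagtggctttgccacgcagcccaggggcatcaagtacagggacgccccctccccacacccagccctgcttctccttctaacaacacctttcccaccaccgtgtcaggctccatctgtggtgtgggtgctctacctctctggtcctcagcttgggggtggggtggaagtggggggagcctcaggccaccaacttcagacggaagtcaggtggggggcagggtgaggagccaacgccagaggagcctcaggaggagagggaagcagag
Atf3, chr1:191183284-191183583, minus strand: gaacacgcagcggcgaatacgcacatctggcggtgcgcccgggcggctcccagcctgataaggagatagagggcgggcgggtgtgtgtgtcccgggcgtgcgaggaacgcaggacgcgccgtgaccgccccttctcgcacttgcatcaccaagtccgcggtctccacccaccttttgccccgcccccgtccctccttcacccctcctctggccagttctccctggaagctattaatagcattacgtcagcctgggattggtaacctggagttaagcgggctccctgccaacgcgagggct
Slc22a8, chr19:8592932-8593231, plus strand: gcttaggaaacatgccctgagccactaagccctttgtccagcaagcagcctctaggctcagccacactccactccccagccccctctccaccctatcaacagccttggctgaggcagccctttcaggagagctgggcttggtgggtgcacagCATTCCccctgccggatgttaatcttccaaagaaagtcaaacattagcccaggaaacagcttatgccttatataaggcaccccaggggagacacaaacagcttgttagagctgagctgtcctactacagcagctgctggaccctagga

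The 5 motifs below were searched on both strands, also chosen after the gene results were known. Of the 15 largest falls, 9 genes matched the promoter table with 11 promoters, and of the 15 largest rises 8 genes with 8 promoters. GGAATG stood in 5 of the 11 promoters of falls (Ankrd1, Krt20, Nppb, Ccl20 and Timp1), in 1 of 8 promoters of rises (Slc22a8) and in 14.7% of all 32851 promoters. TGACTCA stood in 1 of 11 (Lif) and in 2 of 8 (Hpd and Clec2h), against 5.2% of all promoters. The CRE motif TGACGTCA, the HNF1 motif GTTAATNAT and the HNF4 motif CAAAGTCCA stood in none of either, and in 1.79%, 0.801% and 0.475% of all promoters. The first matched base lay 210 and 123 bases before the start in Ankrd1, 139, 134 and 74 before it in Krt20, 228 before it in Lif and 98 before it in Slc22a8. The first and second match of Krt20 overlap by 1 base. A match describes the letters and shows no binding.

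The largest falls included genes of injured epithelium, cytokines and stress transcription factors. Ankrd1 was at 119, 91.2, 116 and 82.5 CPM in HUA and at 2.42, 4.08, 2.02 and 2.13 CPM in XZSW. The groups were far apart with no overlap, and the XZSW libraries lay at or above the CTL range of 1.37 to 2.13 CPM (log2 change -5.26, SE 0.26, adjusted p = 5.3e-07). Havcr1, the gene of KIM-1, a membrane protein of damaged proximal tubule (chromosome 11, 46735080 to 46779578), was at 496, 237, 2098 and 1733 CPM in HUA and at 29.9, 11.3, 34.7 and 50.8 CPM in XZSW. HUA3 and HUA4 were the highest, and every XZSW library was below every HUA library (log2 change -5.17, SE 0.67, adjusted p = 0.00069). CTL kidneys held 30.2 to 43.4 CPM of Havcr1. Sox9, a transcription factor of tubule repair, was at 80.6, 22, 67.3 and 45 CPM in HUA and 1.61, 2.74, 1.08 and 0.999 CPM in XZSW. Its groups did not overlap either (log2 change -5.06, SE 0.5, adjusted p = 0.00016). Atf3 was at 401, 185, 20.1 and 48.8 CPM in HUA and 2.89, 6.25, 1.92 and 6.17 CPM in XZSW, so HUA1 and HUA2 stood above HUA3 and HUA4 while XZSW was low throughout (log2 change -5.25, SE 0.81, adjusted p = 0.0017; -4.32 without HUA1).

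Lif was at 232, 112, 33.4 and 22.2 CPM in HUA and 2.34, 1.87, 0.495 and 0.559 CPM in XZSW, with HUA1 highest and no overlap (log2 change -6.24, SE 0.83, adjusted p = 0.0008; -5.42 without HUA1). Vgf, the precursor of secreted neuropeptides, was at 22.7, 29.5, 238 and 22.6 CPM in HUA and 1.5, 0.138, 0 and 0 CPM in XZSW (log2 change -7.54, SE 1.43, adjusted p = 0.0079), and all 4 CTL libraries had 0 counts. HUA3 held most of its counts, and its log2 change was -5.91 without HUA3 and -10.65 without XZSW1. Il1f6 (interleukin-36 alpha) was at 63.4 to 232 CPM in HUA and 0 to 5.24 in XZSW (log2 change -6.06, SE 1.08, adjusted p = 0.0037; -5.39 without HUA3, -8.01 without XZSW1 and -7.25 with the GC term). The remaining genes of the 15 largest falls were Nppb (a natriuretic peptide), Mir6358 (a microRNA hairpin gene), Ccl20 (a chemokine), Fosl1 (an AP-1 subunit), Krt20, Prss22 (a serine protease), Timp1 (an inhibitor of matrix proteases) and Wnt7a (a Wnt ligand), with log2 changes from -6.43 to -4.94. Several of these were low in HUA: Mir6358 did not exceed 2.73 CPM and Ccl20 6.86 CPM. Wnt7a had an adjusted p of 0.023 and missed the threshold without HUA3 or XZSW2, with log2 changes of -4.18 and -4.62, and it was -8.58 without XZSW1. The fold also moved by over 1.5 times, with the call kept, for Nppb without HUA1 (-5.11) or XZSW1 (-7.67), Fosl1 without HUA1 (-4.53) or XZSW1 (-7.66), Krt20 without HUA3 (-3.92), Ccl20 without XZSW1 (-6.64), Mir6358 without HUA4 (-5.39) and Timp1 without HUA3 (-4.31). With the GC term it moved as far for Vgf (-8.14), Ccl20 (-7.01), Fosl1 (-6.05) and Wnt7a (-6.77).

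**Figure D1:**
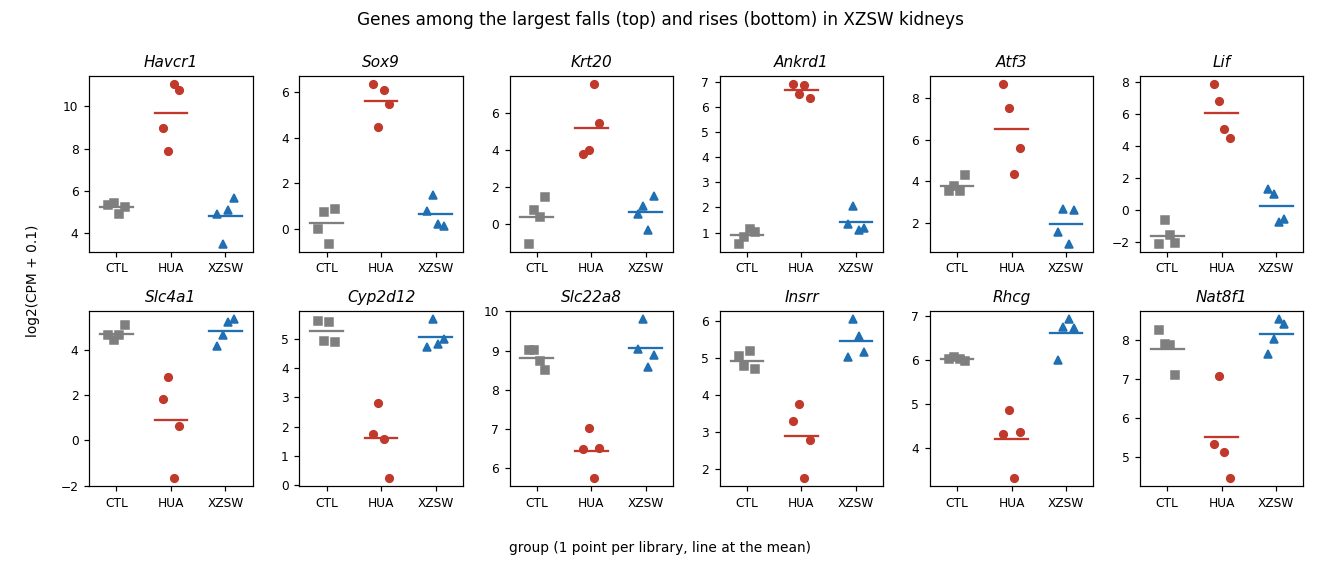
Level of 12 genes in each library, on log2(CPM + 0.1), by group, with 1 point per library and a line at the mean of 4 libraries. In the upper row every XZSW library lies below every HUA library, and in the lower row every XZSW library lies above every HUA library.

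The largest rises included transporters and enzymes of the proximal tubule and acid-base genes of the collecting duct. Slc22a8 (OAT3, chromosome 19, 8591254 to 8611834) was at 88.8, 131, 53.2 and 91.2 CPM in HUA and 523, 893, 379.6 and 469.6 CPM in XZSW. All XZSW libraries stood above all HUA libraries and around the CTL range of 359.6 to 519 CPM (log2 change 2.64, SE 0.3, adjusted p = 0.00041). Rhcg, an ammonia channel of the collecting duct, was at 20, 28.9, 9.83 and 20.5 CPM in HUA and 63.7, 107, 121 and 106 CPM in XZSW. XZSW1 lay within the CTL range of 62.4 to 66.8 CPM, and the other three above it (log2 change 2.33, SE 0.28, adjusted p = 0.00047). Slc4a1, the chloride-bicarbonate exchanger of alpha intercalated cells and red cells, was at 3.45, 6.98, 0.211 and 1.46 CPM in HUA and 18.2, 25.2, 37.6 and 41.6 CPM in XZSW, again without overlap (log2 change 3.34, SE 0.68, adjusted p = 0.0071; 4.16 without HUA2). Cyp2d12, a cytochrome P450, was at 1.06 to 6.91 CPM in HUA and 26.3 to 51.6 in XZSW (log2 change 3.29, SE 0.45, adjusted p = 0.00095), and Insrr, a receptor kinase that senses alkali, at 3.26 to 13.4 and 32.4 to 66.3 CPM (log2 change 2.46, SE 0.36, adjusted p = 0.0013).

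Others among the 15 rises were Anxa13, Bhmt, Hpd, Pde6a, Clec2h, Chrna4, Hsd3b2 and Nat8f1, with log2 changes between 2.33 and 2.88. Anxa13 is an annexin, Bhmt makes methionine from homocysteine, and Hpd is an enzyme of tyrosine breakdown. Without HUA2, whose level was nearest to XZSW, log2 changes rose to 3.72 for Pde6a, 3.24 for Clec2h, 3.05 for Chrna4, 3.20 for Hpd and 3.15 for Nat8f1. Hpd had an adjusted p of 0.04 and missed the threshold with the GC term and without any one of CTL1, CTL2, CTL4, HUA3, XZSW1, XZSW2 or XZSW4, where its log2 change was 2.04 to 2.65. Clec2h missed it without HUA3 (2.23), and Pde6a in the 8 libraries alone (2.49, adjusted p = 0.056), as did Hpd and Car3. Car3, carbonic anhydrase III, an abundant protein of fat and muscle, ranked second, with 198, 24.4, 14 and 19.1 CPM in XZSW and 0.751 to 10.7 CPM in HUA (log2 change 4.20, SE 1.03, adjusted p = 0.016). XZSW1 stood far above the rest, and without it the log2 change was 2.46 and missed the threshold, as did the fit with the GC term (3.12). Without HUA2 it was 5.85. Adipocyte genes moved with that library: XZSW1 was the highest library for 11 of 12 adipocyte genes, which together summed to 213 to 708 CPM in XZSW and 189 to 236 CPM in HUA. Adipoq and Plin1, defining adipocyte genes, were at 14.0 and 14.1 CPM in XZSW1 and at 0 in XZSW3 and XZSW4. The part of adipocyte transcripts in the Car3 result was not tested. The first-ranked rise, Commd1b, had 0 counts in all HUA libraries and in CTL4 and 39.8, 9.29, 1.78 and 8.69 CPM in XZSW, at least 1543-fold higher than a floor of 3 counts over the HUA group, or at least 647-fold without XZSW1. It missed the threshold with limma on log2(FPKM + 1) (adjusted p = 0.075). It overlaps Commd1 on chromosome 11, whose level did not pass the test (log2 change -0.26, adjusted p = 0.5), so how reads were split between the 2 is uncertain.

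Spp1, the ligand of the title (chromosome 5, 104435118 to 104441050), was at 14791, 5597, 17323 and 44351 CPM in HUA and 1214, 802, 1244 and 1407 CPM in XZSW. Every XZSW library was below every HUA library, HUA4 was the highest, and the XZSW libraries still stood above the CTL range of 468 to 571 CPM (log2 change -4.14, SE 0.49, adjusted p = 0.00047; -3.43 without HUA4). Cd44, its receptor, was at 26.3, 37, 78 and 32.2 CPM in HUA and 4.97, 7.37, 5.16 and 7.93 CPM in XZSW, with HUA3 highest and no overlap (log2 change -2.77, SE 0.36, adjusted p = 0.00075). Src, a membrane-bound tyrosine kinase, was at 49.7, 50.1, 80 and 57.3 CPM in HUA and 27.9, 31.2, 36.5 and 30.1 CPM in XZSW, within the CTL range of 26 to 37.2 CPM (log2 change -0.91, SE 0.17, adjusted p = 0.0046). Ctnnb1 was at 485, 334, 406 and 345 CPM in HUA and 281, 247, 287 and 254 CPM in XZSW (log2 change -0.56, SE 0.14, adjusted p = 0.018). Its groups did not overlap, but it missed the threshold without XZSW2 (-0.52, adjusted p = 0.056) and in the fit of the 8 libraries alone (-0.55, adjusted p = 0.072). Ptk2 was at 29.8 to 48.5 CPM in HUA and 29.6 to 40.2 CPM in XZSW, overlapping, and did not pass the test (log2 change -0.16, SE 0.16, adjusted p = 0.57). The exact permutation test on log2(FPKM + 1), 4 against 4 and two-sided, gave p = 0.0286 for Spp1, Cd44, Src and Ctnnb1 (adjusted 0.0357 over the 5 genes) and p = 0.2 for Ptk2. Protein and phosphorylation were not measured, so kinase activity is outside these data.

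**Figure D2:**
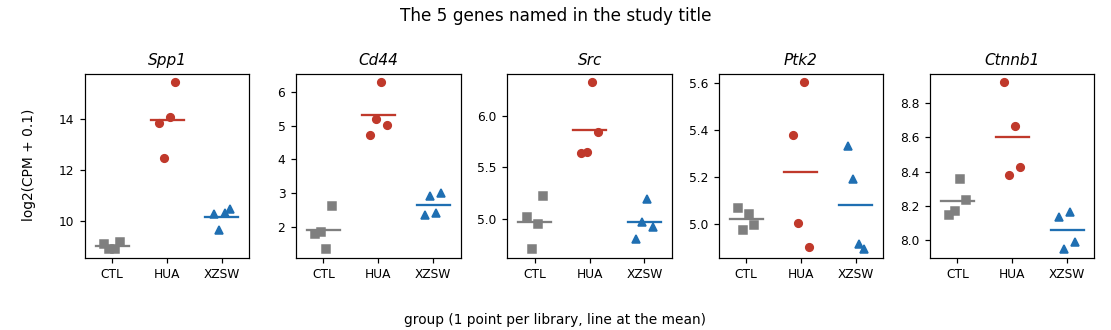
Level of Spp1, Cd44, Src, Ptk2 and Ctnnb1 in each library, on log2(CPM + 0.1), by group, with 1 point per library and a line at the mean. The XZSW points lie below all HUA points for 4 of the 5 genes and among them for Ptk2.

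In a list of osteopontin receptors and CD44 ligands that holds Spp1 and Cd44 themselves, 6 of 13 fell and none rose (median log2 change -0.85). They were Spp1, Cd44, the hyaluronan synthase Has1 and the integrin chains Itgav, Itgb1 and Itga5. Itgb1 was at 246 to 448 CPM in HUA and 143 to 205 CPM in XZSW (log2 change -1.0, SE 0.18, adjusted p = 0.0033). Of 23 genes of SRC and FAK signalling, 8 fell and none rose (median -0.52). Zyx (zyxin, a focal adhesion protein) was at 102 to 157 CPM in HUA and 49.8 to 61.6 CPM in XZSW (log2 change -1.18, SE 0.15, adjusted p = 0.00069), and Itga3, a laminin-binding integrin chain, at 87.6 to 216 and 42.4 to 67.4 CPM (log2 change -1.42, SE 0.26, adjusted p = 0.004). Fgr, a SRC-family kinase of myeloid cells, fell with them (log2 change -1.79). Of 25 Wnt and beta-catenin genes 3 fell (Ctnnb1, Wnt7a and Cdh1) and none rose (median -0.17). These falls are 12% of the list, near the 8.34% of all tested genes. By edgeR 3 members were higher and 6 lower at an unadjusted p under 0.05, and DESeq2 called 2 higher and 2 lower. That count of 3 fell to 1 without HUA3 and 0 without XZSW2, and was 5 with the GC term.

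**Figure D3:**
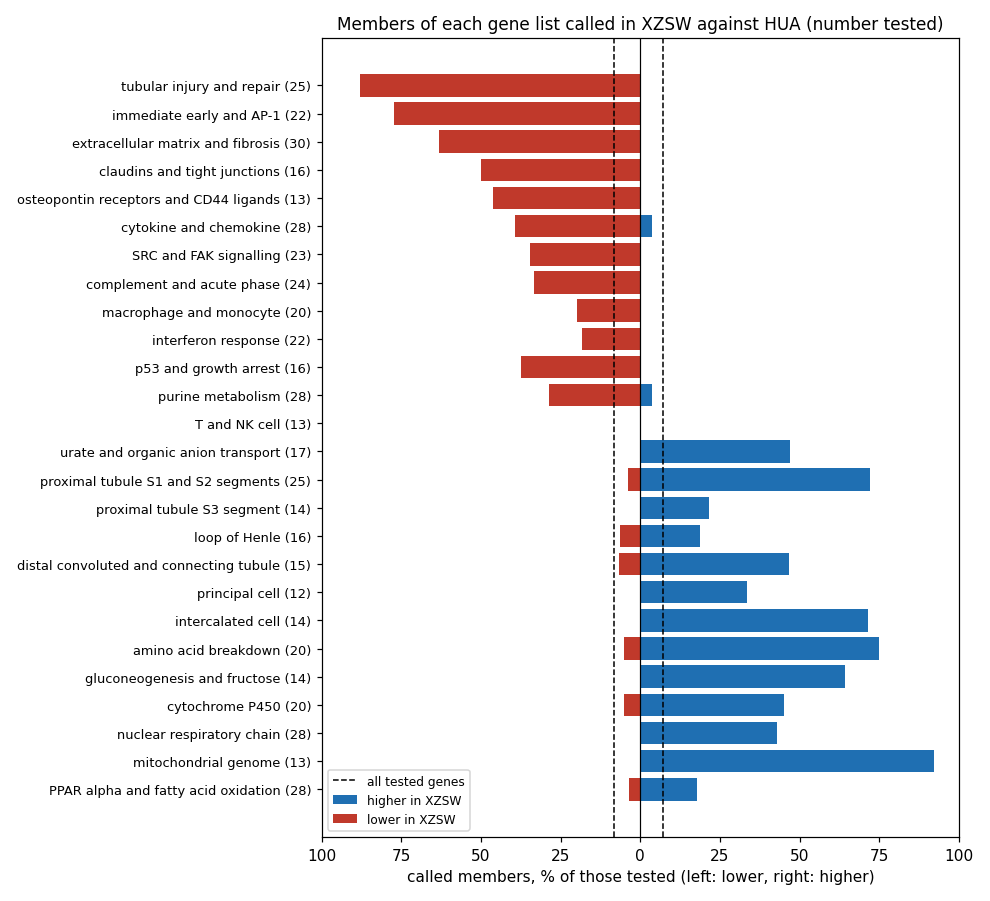
Share of tested members of 26 gene lists that rose (right, blue) or fell (left, red) in XZSW against HUA, in percent, with the number tested in brackets. Dashed lines mark the shares among all tested genes, 7.09% higher and 8.34% lower, and the longest bars are those of the injury list and the mitochondrial genome. All lists and their members were chosen with earlier results of these data known, so the bars only describe them.

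Genes of tubular injury and repair fell in 22 of 25 cases, with none rising and a median log2 change of -3.46, against 0.0075 over all genes. By edgeR none was higher at an unadjusted p under 0.05, and DESeq2 called none higher. This list was put together with its fall known. Lcn2, which encodes the secreted iron-binding protein NGAL and was named after its values were seen, was at 413, 153, 454 and 713 CPM in HUA and 30.2, 7.39, 6.31 and 12.4 CPM in XZSW, without overlap (log2 change -4.94, SE 0.67, adjusted p = 0.0009; -5.64 without XZSW1). The XZSW libraries were still above the CTL range of 0.517 to 3.1 CPM. The simple epithelial keratins Krt8 and Krt18 were at 705 to 1612 and 378 to 627 CPM in HUA. In XZSW they were at 156 to 186 and 43.8 to 91.3 CPM, so Krt8 reached the CTL range of 155 to 178 CPM and Krt18 stayed above its range of 22.1 to 28.1 CPM. Their log2 changes were -2.55 (SE 0.23) and -2.94 (SE 0.24). Sox4, a transcription factor of progenitor cells, fell by a log2 change of -2.34 (SE 0.23). The members that did not pass were Vim, Cryab and Igfbp7.

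Immediate early and AP-1 genes, which respond within minutes to growth factors and stress, fell in 17 of 22 cases with none rising (median -2.39). Klf6, a zinc finger factor, was at 678, 291, 334 and 209.6 CPM in HUA and 35.8, 43, 24.8 and 31.7 CPM in XZSW (log2 change -3.48, SE 0.34, adjusted p = 0.00015). Jun, an AP-1 subunit, was at 215, 221, 149 and 119.6 CPM in HUA and 33.8, 34.9, 31.4 and 62.4 CPM in XZSW (log2 change -2.12, SE 0.26, adjusted p = 0.00048). All 4 XZSW libraries lay below the CTL range for Jun, 97.8 to 138 CPM. The same order of levels held for Maff, a small MAF factor, at 2.81 to 8.92 CPM in XZSW, 5.51 to 16.4 in CTL and 31.6 to 80.1 in HUA, though XZSW2 lay within the CTL range. Socs3, an inhibitor of cytokine signalling, was at 21.1 to 198 CPM in HUA and 2.83 to 4.63 CPM in XZSW (log2 change -4.50, SE 0.56, adjusted p = 0.00054; -3.64 without HUA1). In p53 and growth arrest genes, 6 of 16 fell and none rose (median -0.84), and 10 fell without HUA1. Cdkn1a, which encodes the cell cycle inhibitor p21, was at 209, 41.6, 109 and 56.3 CPM in HUA and 8.43, 13.1, 7.91 and 8.42 CPM in XZSW (log2 change -3.46, SE 0.53, adjusted p = 0.0016), and all XZSW libraries were below the CTL range of 14.9 to 56.5 CPM. Hbegf, a ligand of the EGF receptor, showed the same order, with 13.2 to 14.6 CPM in XZSW, 41.2 to 61 in CTL and 61.3 to 336 in HUA (log2 change -3.69, SE 0.42, adjusted p = 0.00039). No test of XZSW against CTL is reported here, so these are levels only.

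Extracellular matrix and fibrosis genes fell in 19 of 30 cases and none rose (median -1.28). Tgfb2, a TGF-beta ligand, was at 18.4, 13.7, 25.6 and 12.2 CPM in HUA and 3.25, 3.06, 2.26 and 2.63 CPM in XZSW (log2 change -2.64, SE 0.33, adjusted p = 0.00056). Thbs1 (thrombospondin 1) was at 123 to 405 CPM in HUA and 25.3 to 72.2 CPM in XZSW (log2 change -2.51, SE 0.39, adjusted p = 0.0018). Neither gene's groups overlapped, and XZSW stayed above the CTL levels of 0.832 to 2.2 and 17.1 to 22.7 CPM. The fibrillar collagen chain Col3a1 did not pass the test, with 82.6, 62.4, 113 and 61.2 CPM in HUA and 14.4, 6.94, 46.4 and 56.9 CPM in XZSW (log2 change -1.36, SE 0.5, adjusted p = 0.085). XZSW1 and XZSW2 were low and XZSW3 and XZSW4 close to HUA. Of the smooth muscle genes, Tagln and Acta2 fell (log2 changes -3.26 and -2.04; -2.41 and -1.41 without HUA3), and of 15 genes of fibroblasts, pericytes and smooth muscle these 2 fell and 1 rose, the list summing to 375 to 856 CPM in HUA, 138 to 424 in XZSW and 155 to 198 in CTL. Without XZSW4, 4 of the 15 fell. Of 16 claudins and tight junction genes 8 fell and none rose (median -0.84), or 5 without HUA3 or XZSW2. Cldn4, a claudin of the distal nephron, was at 609, 357, 268 and 198 CPM in HUA and 39.3, 28.7, 33 and 25.4 CPM in XZSW, and the groups were wide apart (log2 change -3.5, SE 0.3, adjusted p = 9.6e-05). Cldn7 fell as well (log2 change -1.73, SE 0.23).

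Among cytokines and chemokines 11 of 28 fell and 1 rose (median -1.17). The risen gene was the chemokine Cxcl12, which did not pass without HUA4 or XZSW2. Csf1 and Il34, the ligands of the CSF1 receptor on macrophages, were at 51.6, 35.8, 91.4 and 35.2 and at 48.9, 75.4, 159 and 168 CPM in HUA. In XZSW they were at 10.2, 9.35, 7.71 and 8.11 and at 18.6, 8.37, 15.7 and 23.8 CPM, below all HUA libraries for both (log2 change -2.60, SE 0.28, adjusted p = 0.00025 for Csf1; log2 change -2.76, SE 0.42, adjusted p = 0.0016 for Il34). XZSW levels of Csf1 were above the CTL range of 3.31 to 4.2 CPM, while those of Il34 were within or below its range of 14.3 to 29.4 CPM. Il11, of the interleukin-6 family, fell from 3.09 to 12.4 CPM to 0.204 to 0.499 CPM (log2 change -4.39, SE 0.49, adjusted p = 0.00038). Of 24 complement and acute phase genes 8 fell and none rose (median -0.91). The fibrinogen chain Fga was at 452, 184, 340.5 and 419 CPM in HUA and 43, 20.8, 16.9 and 15 CPM in XZSW (log2 change -3.87, SE 0.39, adjusted p = 0.00016), and C3, the central complement component, at 399.7 to 1101 and 71.1 to 99.5 CPM (log2 change -3.14, SE 0.41, adjusted p = 0.00075). Fga in XZSW was near its CTL range of 20.3 to 40.3 CPM, and C3 was above its range of 8.55 to 35.4 CPM.

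Macrophage and monocyte genes fell in 4 of 20 cases (Cd14, C1qa, C1qb and Cd68) and none rose, with a median of -0.96 and 19 of 20 estimates below 0. Cd14, a co-receptor for bacterial lipopolysaccharide, was at 87.1, 59.5, 151 and 239.9 CPM in HUA and 17.6, 10.3, 13.1 and 9.18 CPM in XZSW (log2 change -3.42, SE 0.42, adjusted p = 0.00054). The complement chain C1qb was at 20.2, 36.5, 52.5 and 18.8 CPM in HUA and 8.8, 10.1, 16.7 and 15.3 CPM in XZSW (log2 change -1.33, SE 0.38, adjusted p = 0.032), nearer to each other but without overlap. C1qb, C1qa and Cd68 each missed the threshold when single libraries were left out, so the count of 4 was 1 without HUA2, HUA3, XZSW2 or XZSW4, 2 without XZSW1, and 7 without HUA4. Adgre1 and Csf1r, defining macrophage genes named after their values were seen, did not pass the test: Adgre1 was at 7.08, 3.58, 3.37 and 0.576 CPM in HUA and 1.34, 0.919, 3.95 and 4.01 in XZSW, and Csf1r at 74.7, 61, 45.7 and 26.9 and 44.6, 12.2, 57.9 and 82.6 CPM. Both overlapped between groups, with log2 changes of -0.52 and -0.08 (adjusted p = 0.65 and 0.93). The whole list summed to 370 to 572 CPM in HUA, 136 to 322 in XZSW and 88.8 to 157 in CTL. In whole tissue, fewer cells of a type and less RNA per cell cannot be told apart.

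T cell and neutrophil genes were not called. None of 13 T and NK cell genes was called by edgeR, 2 were higher at an unadjusted p under 0.05, and DESeq2 called 2 higher and none lower. XZSW4 was the highest of the 8 libraries for 12 of 14 T and NK genes, and the list summed to 6.91 to 29.1 CPM in XZSW and 4.53 to 11.8 in HUA. None of 5 tested neutrophil genes was called by edgeR, 1 was lower at an unadjusted p under 0.05, and DESeq2 called none. Of 22 interferon response genes 4 fell and none rose (median -0.67), a count of 2 without HUA2, HUA3, HUA4, XZSW2 or XZSW4 and of 8 without HUA1. The median was -0.065 without HUA2, and it was 0.70, with 17 of 22 estimates above 0, when HUA1 alone was set against XZSW1 and XZSW2. Gbp3, a guanylate-binding protein, was at 22.5 to 35.1 CPM in HUA and 6.2 to 14.6 CPM in XZSW (log2 change -1.65, SE 0.3, adjusted p = 0.0044). Of 22 cell cycle genes 6 fell and none rose (median -1.29, or -0.43 without HUA4). HUA4 was the highest for Mcm5 and Mcm6, helicase subunits of DNA replication, and the count was 1 without HUA4, XZSW2, XZSW3 or XZSW4, and 1 with the GC term.

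**Figure D4:**
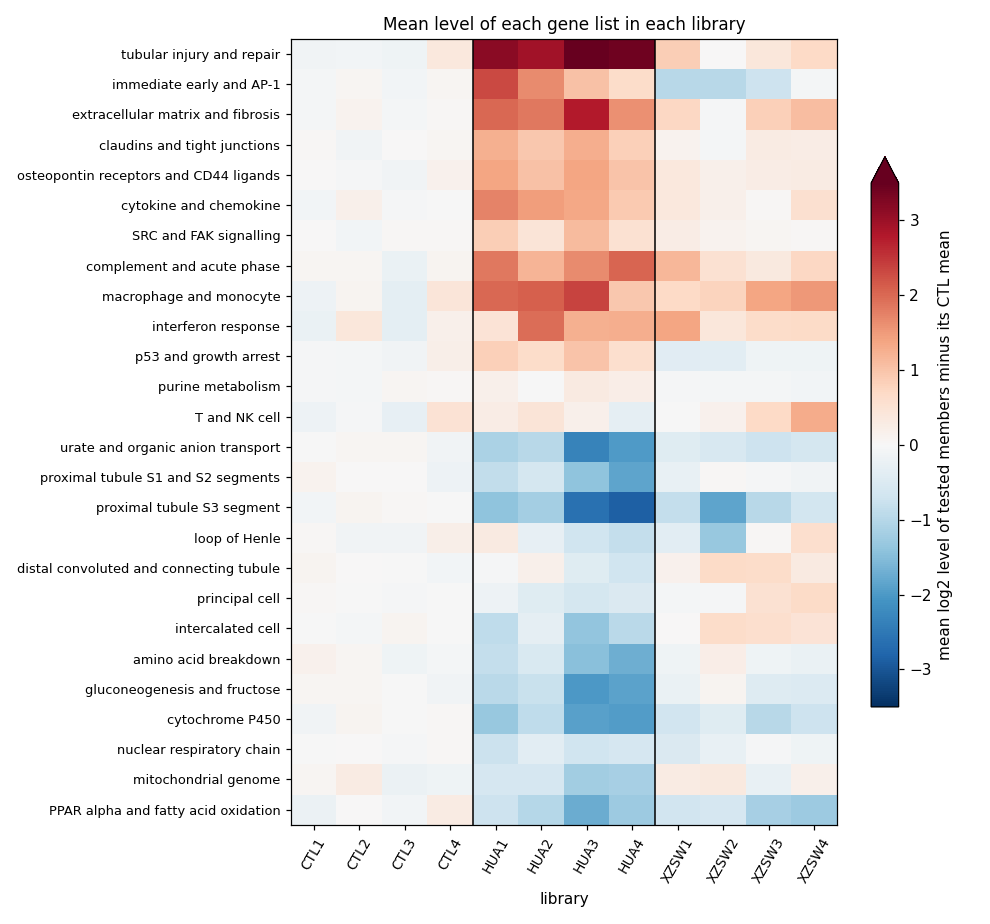
Mean log2 level of the tested members of 26 gene lists in each of the 12 libraries, minus the mean of the 4 CTL libraries, with red above and blue below CTL. The injury list is redder in every HUA library than in any XZSW library, and the urate transport list is bluer. The immediate early list lies below the CTL mean in all 4 XZSW libraries, but XZSW4 (-0.057) lies within the CTL spread, above CTL1 (-0.058) and CTL3 (-0.089). The fatty acid oxidation, S3 segment, interferon, macrophage, and T and NK cell lists overlap between HUA and XZSW. So do the loop of Henle, distal tubule, cytochrome P450 and nuclear respiratory chain lists.

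Urate and organic anion transporters of the proximal tubule rose in 8 of 17 cases and none fell (median 0.85, against 0.0075 over all genes), or 5 without XZSW2. By edgeR none was lower at an unadjusted p under 0.05, and DESeq2 called none lower. Slc22a6 (OAT1) was at 266, 524, 145 and 223 CPM in HUA and 953, 1249, 761 and 786 CPM in XZSW, without overlap and at or below the CTL range of 1214 to 1610 CPM (log2 change 1.69, SE 0.32, adjusted p = 0.0048). Slc17a3, a phosphate and urate transporter, was at 180.2, 234, 122 and 156 CPM in HUA and 388, 452, 322 and 342 CPM in XZSW (log2 change 1.12, SE 0.2, adjusted p = 0.0041). Every XZSW library lay between HUA and the CTL range of 545 to 836 CPM. Pdzk1, the scaffold of these transporters, was at 257 to 572 CPM in HUA and 856 to 1148 CPM in XZSW (log2 change 1.15, SE 0.23, adjusted p = 0.0062).

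The principal urate transporters were named after their values were seen. Slc22a12 (URAT1), which reabsorbs urate at the apical membrane, was at 449, 657, 261 and 429.8 CPM in HUA and 822, 912, 806 and 707 CPM in XZSW, against 1177 to 1792 CPM in CTL. It passed the test (log2 change 0.85, SE 0.23, adjusted p = 0.027) but missed the threshold without HUA3, HUA4, XZSW1, XZSW2 or XZSW3 (log2 changes 0.65 to 0.85) and with library totals (0.68). Slc2a9 (GLUT9), the basolateral urate exit, was at 5.93 to 13.5 CPM in HUA and 16.1 to 24.1 CPM in XZSW (log2 change 0.91, SE 0.23, adjusted p = 0.02), and missed the threshold without XZSW2 (0.77). Abcg2, a urate-exporting ABC transporter, did not pass the test, with 253, 241, 169 and 202 CPM in HUA and 284, 342, 268 and 263 CPM in XZSW (log2 change 0.42, SE 0.15, adjusted p = 0.083). Its groups lay just apart in CPM and overlapped in FPKM, and both lay below the CTL range of 403 to 516 CPM.

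Of 28 purine metabolism genes 8 fell and 1 rose (median -0.33). Prps1, which makes the ribose donor of purine synthesis, was at 37.6, 34.9, 58.1 and 42.9 CPM in HUA and 24.2, 25, 23.6 and 21.8 CPM in XZSW, without overlap and below the CTL range of 27.7 to 29 CPM (log2 change -0.87, SE 0.15, adjusted p = 0.0029). Nt5e (CD73), which makes adenosine from AMP, was at 161, 99.1, 172 and 132 CPM in HUA and 77, 81.1, 76 and 62.7 CPM in XZSW (log2 change -0.93, SE 0.23, adjusted p = 0.017). Impdh2 and Gmpr, enzymes of guanine nucleotide metabolism, fell too (log2 changes -0.66 and -1.21), and Gmpr missed the threshold without XZSW1 (-1.10) or XZSW2 (-1.17). The risen gene was Adk, adenosine kinase. The falls numbered 4, 3 and 5 without HUA3, XZSW2 or XZSW4, and the rise was absent without HUA3, HUA4, XZSW1 or XZSW2 and one of 3 without HUA1. Xdh, which encodes the urate-forming enzyme, did not pass the test. It was at 21.6, 24.6, 21.7 and 30.4 CPM in HUA and 28.3, 30.9, 15.5 and 15.5 CPM in XZSW, overlapping (log2 change -0.12, SE 0.25, adjusted p = 0.79). Uox (uricase), the target of oxonate, was at 0 to 0.95 CPM in XZSW and 0.276 to 1.89 CPM in HUA and did not pass either (adjusted p = 0.41).

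Markers of several nephron segments rose. Of 25 genes of the proximal tubule's first 2 segments 18 rose and 1 fell (median 1.08). Miox, which breaks down inositol, was at 348, 807, 345 and 134 CPM in HUA and 1346, 1790, 1727 and 1569 CPM in XZSW, all above HUA and above the CTL range of 1066 to 1297 CPM (log2 change 1.98, SE 0.38, adjusted p = 0.0056). Slc34a3, a sodium-phosphate cotransporter, was at 3.66 to 14.4 CPM in HUA and 33.6 to 67.7 CPM in XZSW (log2 change 2.11, SE 0.35, adjusted p = 0.0026), and Slc36a1, an amino acid transporter, at 33.1 to 71.2 and 109 to 151 CPM (log2 change 1.35, SE 0.23, adjusted p = 0.0027). Lrp2 (megalin), the endocytic receptor of the brush border, named after its values were seen, was at 233 to 929 CPM in HUA and 1206 to 1580 CPM in XZSW (log2 change 1.21, SE 0.32, adjusted p = 0.023), and missed the threshold without HUA3 (1.11) or XZSW2 (1.15). The 18 rises were 9, 11, 10 and 10 without HUA3, HUA4, XZSW2 or XZSW3. The fallen gene, the sulfate transporter Slc13a1, is named because it stands alone, and it did not pass without HUA4, XZSW3 or XZSW4. In the third (S3) segment 3 of 14 genes rose and none fell (median 0.91), and 7 rose without HUA2. Cyp4b1 there was at 593 to 1555 CPM in HUA, 1978 to 2909 in XZSW and 3192 to 4544 in CTL (log2 change 1.33, SE 0.27, adjusted p = 0.0073).

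Further along the nephron, of 16 genes of the loop of Henle 3 rose (Bsnd, Kcnj1 and Egf) and 1 fell (Cldn4), with a median of 0.22, and 1 rose without XZSW3 or XZSW4. This median has no stable direction: it was -0.072 without XZSW4, 0.60 without HUA1, 0.95 within the libraries of steeper GC slope and -1.06 for HUA1 against XZSW1 and XZSW2. Bsnd, a chloride channel subunit, was at 15.5, 33.7, 28.4 and 39.4 CPM in HUA and 48.9, 51.7, 88.3 and 111 CPM in XZSW (log2 change 1.36, SE 0.3, adjusted p = 0.0095). In the distal convoluted and connecting tubule 7 of 15 rose and 1 fell (median 0.64). Wnk4, a kinase that controls sodium chloride transport, was at 133, 167, 122 and 137 CPM in HUA and 221, 268, 322 and 319 CPM in XZSW, while CTL and HUA levels overlapped (CTL 138 to 159 CPM; log2 change 1.01, SE 0.15, adjusted p = 0.0013). Kl (klotho) was at 91.1 to 309.9 CPM in HUA and 509.5 to 689.5 CPM in XZSW (log2 change 1.45, SE 0.3, adjusted p = 0.0071). Trpv5, an epithelial calcium channel, fell from 52.3 to 76.5 CPM to 17.4 to 45.7 CPM, and stayed above the CTL range of 9.72 to 13.2 CPM (log2 change -1.13, SE 0.24, adjusted p = 0.0079).

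In the collecting duct, 10 of 14 intercalated cell genes rose and none fell (median 1.18), and 4 of 12 principal cell genes rose and none fell (median 0.61). Rhbg, an ammonia transporter, was at 10.1, 19.4, 6.48 and 11.6 CPM in HUA and 26, 52.8, 65.4 and 46.8 CPM in XZSW (log2 change 2.01, SE 0.31, adjusted p = 0.0018), and Slc26a4 (pendrin), the anion exchanger of beta intercalated cells, at 18.1 to 33.6 and 51 to 90.5 CPM (log2 change 1.30, SE 0.21, adjusted p = 0.0023). Hsd11b2, which inactivates glucocorticoids in principal cells, was at 43, 52.6, 30.1 and 42.6 CPM in HUA and 89.5, 185, 203 and 203 CPM in XZSW. XZSW1 was the lowest of its group and just below the CTL range of 92.4 to 108 CPM, while XZSW2, XZSW3 and XZSW4 were above that range (log2 change 2.02, SE 0.24, adjusted p = 0.00047). Scnn1g, a subunit of the epithelial sodium channel, was at 19.9 to 35.3 and 40.9 to 60.4 CPM (log2 change 1.09, SE 0.19, adjusted p = 0.0035), and Aqp3, a water channel, at 10.2 to 46.5 and 73.5 to 127 CPM (log2 change 1.82, SE 0.37, adjusted p = 0.007). Red cells share Slc4a1 with intercalated cells. Of 8 erythroid genes only Slc4a1 rose, but the list's median log2 change was 1.74, 7 of 8 estimates were above 0, and 5 rose with the GC term and 7 without HUA1. The erythroid list summed to 20 to 207 CPM in HUA, 113 to 615 in XZSW and 389 to 601 in CTL. The part of red cell transcripts in the Slc4a1 result was not tested.

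**Figure D5:**
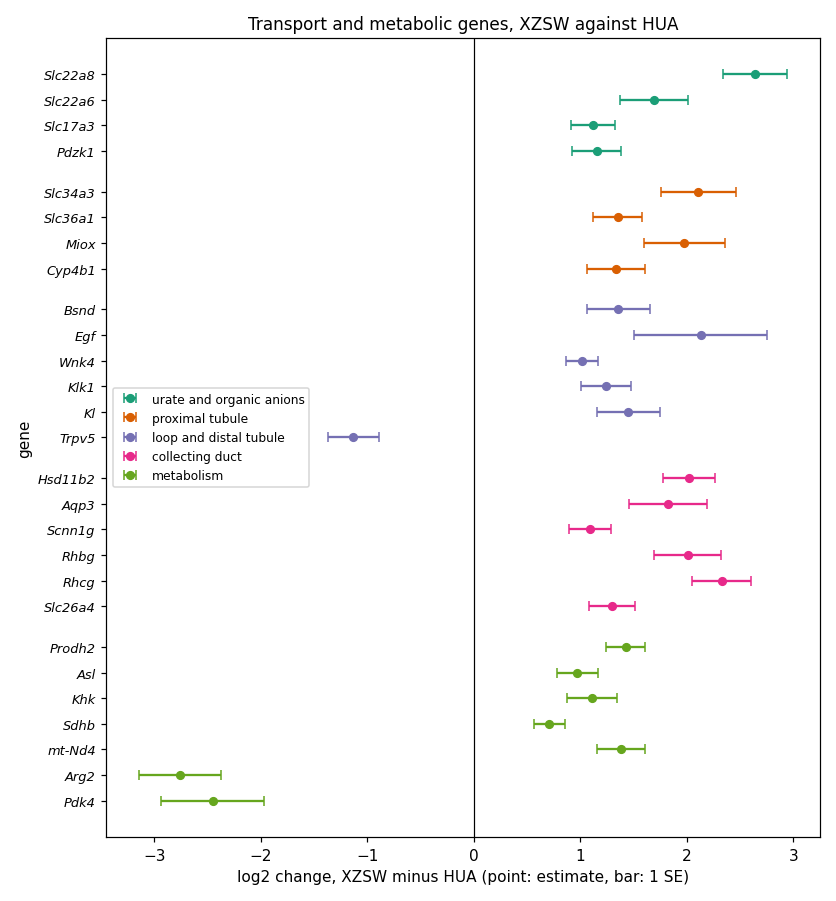
Log2 change of 27 transport and metabolic genes in XZSW against HUA, with the estimate as a point and 1 standard error as a bar, coloured by group. All lie above 0 except Trpv5, Arg2 and Pdk4, which lie below.

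Metabolic genes of the tubule rose with its transporters. Of 20 amino acid breakdown genes 15 rose and 1 fell (median 0.98). Prodh2, a hydroxyproline dehydrogenase, was at 18.1, 28.9, 18.5 and 23 CPM in HUA and 51.3, 66.4, 65.6 and 54 CPM in XZSW (log2 change 1.42, SE 0.18, adjusted p = 0.00062). Arg2, the mitochondrial arginase, went the other way, from 58.6 to 169 CPM to 7.68 to 22.7 CPM, with a CTL range of 18.6 to 41.4 CPM (log2 change -2.76, SE 0.38, adjusted p = 0.0011). Of 14 genes of gluconeogenesis and fructose metabolism 9 rose and none fell (median 1.05), or 4, 5 and 4 without HUA3, HUA4 or XZSW2. Khk, fructokinase, was at 134 to 351 CPM in HUA and 395 to 524 CPM in XZSW (log2 change 1.11, SE 0.24, adjusted p = 0.009), and Tkfc, of the same pathway, at 121 to 191 and 267 to 301 CPM (log2 change 0.79, SE 0.14, adjusted p = 0.0038). Of 20 cytochrome P450 genes 9 rose and 1 fell (median 0.94). The rises were 5, 4 and 5 without HUA3, XZSW2 or XZSW4, and the fall, Cyp3a13, was called only with all libraries or without HUA2, XZSW2 or XZSW4.

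The mitochondrial genome's own transcripts rose in 12 of 13 cases and none fell (median 0.90). mt-Nd4, a subunit of complex I, was at 7131, 6719, 4209 and 4168 CPM in HUA and 15898, 16233, 10060 and 15833 CPM in XZSW, with XZSW3 the lowest of its group and within the CTL range of 9606 to 13096 CPM (log2 change 1.38, SE 0.23, adjusted p = 0.0023). On log2 of FPKM with limma, 4 of the 13 passed with a pseudocount of 1 and 3 with 0.1. Nuclear genes of the respiratory chain rose in 12 of 28 cases and none fell (median 0.41), and in 18 cases with the GC term, 2 in the 8 libraries alone, 4 with library totals and 5 to 7 without HUA3, XZSW2, XZSW3 or XZSW4. Ndufa9, a complex I subunit, was at 114 to 146 CPM in HUA and 165 to 220.3 CPM in XZSW (log2 change 0.61, SE 0.13, adjusted p = 0.0075). Of 28 genes of fatty acid oxidation 5 rose and 1 fell (median 0.38), and the rises were 1 without HUA3 or XZSW2, 2 and 3 without HUA4 or XZSW3, and 8 without HUA1. Acaa2, a thiolase, was at 73.6, 87.1, 73.2 and 85.6 CPM in HUA and 154, 173, 153 and 134 CPM in XZSW (log2 change 0.94, SE 0.13, adjusted p = 0.0011). Pdk4, which restrains glucose oxidation, fell from 365, 139, 152 and 97.3 CPM to 37.3, 57.7, 16.6 and 26.1 CPM, and its CTL range of 229 to 699 CPM lay above XZSW (log2 change -2.45, SE 0.48, adjusted p = 0.006). Angptl4, an inhibitor of lipoprotein lipase, was at 136 to 176 CPM in HUA, 41.2 to 92.5 in XZSW and 228 to 398 in CTL (log2 change -1.46, SE 0.26, adjusted p = 0.0033).

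In the fit of the 8 libraries alone, fewer members of several lists passed. Rises numbered 5 for urate and organic anion transport, 8 for the first proximal segments, 1 for the loop of Henle, 4 for the distal tubule, 3 for gluconeogenesis, 4 for cytochrome P450 and 1 for fatty acid oxidation. Falls numbered 2 for purine metabolism, 2 for macrophages, 2 for interferon response, 3 for osteopontin receptors, 5 for claudins, 1 for the cell cycle and 0 for Wnt. With those 8 libraries 21 of 25 injury genes, 12 of 22 immediate early genes, 9 of 14 intercalated cell genes and 11 of 20 amino acid breakdown genes still passed in the direction given above.

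The model's own contrast shares the HUA libraries with this one, so the 2 sets of log2 changes are set side by side only. For Havcr1 the log2 change of HUA against CTL was 4.91 and that of XZSW against HUA -5.17. The same pair of values was 5.32 and -4.14 for Spp1, -2.32 and 2.64 for Slc22a8, -0.13 and 1.01 for Wnk4, and -1.48 and -2.45 for Pdk4.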

How the data were processed

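Total RNA of whole mouse kidney was extracted with TRIzol, kept where the RNA integrity number was above 7.0 and made into strand-specific libraries, per the labels' protocols. The authors deposited counts and FPKM per gene for all 12 libraries in a single table of 33188 genes. The tools cutadapt 1.9 and HISAT2 2.2.1 and the build GRCm38 come from the submitters' processing notes, while the counting tool, its annotation and any filter are not given in the sources used here. Deposited counts were tested as they stood, and the deposited FPKM served for the naming rule, the exact permutation tests and the limma alternatives. Where identifiers shared a symbol, the one with most counts was used.

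All 12 libraries were fitted by group in edgeR 4.0.16 (R 4.3.3) with filterByExpr, TMM factors and the quasi-likelihood F-test, adjusted by Benjamini-Hochberg over 19772 genes. The script was checked on simulated counts. Alternatives used DESeq2 1.42.0 and limma 3.58.1, and the closing section gives their effect. Exact permutation tests used scipy 1.17.1. Genes were named if they were among the 15 largest rises or falls with adjusted p under 0.05, FPKM averaging 2 or more where they were higher, no overlap of FPKM between the groups and no predicted-gene symbol, if they were in the title, or if they were the 4 members of a list with the smallest p (2 where none was called). From the genes meeting this rule, those detailed were picked for how fully they show each list. Any gene named outside it was named after its values were seen. The text names only part of the genes that met the rule. Members and lists were chosen with earlier results of these data known. Of 33188 identifiers, 33092 are in GENCODE M21, and 32924 have the same start there, so coordinates are those of the deposited table. With totals of 51643999 to 74288100 counts, the spread between 4 libraries and not counting error limits precision for all but the lowest genes. Reads of overlapping genes and close paralogs may have been split by the counting.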

Additional observations from a re-analysis of the deposited data

Results flagged for a closer look

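Of 360 groups of 4 libraries examined, 34 held 1 library far from the other three (a gap, relative to the group's range, above Dixon's 95% critical value). That limit flags about 1 group in 20 only where values are independent and normally distributed. The values of many genes in the same libraries are not independent, so 34 cannot be set against chance. The far library was XZSW1 7 times, HUA1 and HUA3 6 times each, XZSW2 and HUA2 4 each, HUA4 and XZSW3 3 each and XZSW4 once. All values here are CPM unless a percent is given.

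XZSW1 was the highest of its group for Car3 (198), Thrsp (38.3), Gbp3 (14.6), Il1f6 (5.24), Vgf (1.5) and Wnt7a (1.28), and the lowest for Hsd11b2 (89.5). HUA3 was the highest of its group for Mt1 (354), Vgf (238), Tagln (234), Il1f6 (232), Acta2 (172) and Nes (119). HUA1 was the highest for Bhlhe40 (349.8), Trib1 (127), Pfkfb3 (111), Irs2 (85.1) and Prss22 (21), and for the haemoglobin share of counts (0.0217%). XZSW2 was the highest for Pdzk1 (1148), Asl (357), Angptl4 (92.5) and Cdkn1a (13.1). HUA2 was the highest for Nat8f1 (135), Gbp3 (35.1), Lipe (27.0) and Car3 (10.7). HUA4 was the highest for Mcm6 (35.2), Mcm5 (27.6) and Fgr (8.36). XZSW3 was the lowest for mt-Nd4 (10059.5), Lpl (136) and the mitochondrial share of counts (13.5%), and XZSW4 the highest for Jun (62.4).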

How the results depend on the processing

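Across 24 alternative settings, no estimate changed sign among 178 called genes wherever a gene had a result. The DESeq2 setting covers 174 of them, without Car3 or Vgf, and the filter on a mean FPKM of at least 1 covers 173. Most of the 178 were chosen by the naming rule, but they include genes named after their values were seen, such as Lcn2 and Lrp2. Of the 178 genes, 134 passed the threshold in all 12 fits that left out a library and 167 with the GC term. In the 8 libraries alone 130 passed, and with the replicate number as a block 175. Rises numbered 836 with library totals and 520 in the 8 libraries alone, and falls 2714 and 919. Within the steeper GC libraries (3 HUA against 2 XZSW) and the shallower ones (HUA1 alone against XZSW1 and XZSW2, where the lone library is assumed to vary like the others), rises numbered 5 and 8 and falls 36 and 72. Leaving out a library gave 704 to 1689 rises and 1007 to 2128 falls, both lowest without HUA3 and highest without HUA1, and without XZSW2 there were 774 and 1071. limma on log2 FPKM gave 1184 rises and 2387 falls with a pseudocount of 1, and 1169 and 2335 with 0.1 (33.2% and 33.4% of calls higher), and DESeq2 gave 1988 and 2289. Without a filter 968 genes rose and 1349 fell.

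With so few libraries a missed threshold there says nothing about stability. The log2 changes in these sets, none past the threshold, were -4.08 and -3.88 for Spp1, -2.90 and -2.11 for Cd44, -0.90 and -0.76 for Src and -0.41 and -0.89 for Ctnnb1. Ctnnb1 was at -0.55 in the 8 libraries alone and at -0.64 to -0.45 over the omissions of single libraries, passing in all of them but that of XZSW2 (-0.52). Signs turned only for genes that had not passed. In the shallower libraries the log2 change was -0.11 for Podxl, -0.41 for Sfrp1, -0.54 for Mylpf, 0.44 for Xdh and 0.68 for Uox. In the steeper ones it was 0.57 for Erbb4, 0.66 for Csf1r and 0.67 for Adgre1. Mylpf was at -0.013 with library totals and -0.023 with limma and a pseudocount of 0.1. Over omissions of single libraries the values ran from -1.32 to 0.018 for Erbb4, -0.24 to 0.25 for Mylpf, -0.31 to 0.021 for Xdh, -0.45 to 0.24 for Csf1r and -0.87 to 0.020 for Adgre1. The cause was not tested.

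The replicate numbers were not taken to pair the samples, since only 1 of the 4 correlations between same-numbered HUA and XZSW libraries was over 0.1 (r = 0.174, 0.0356, 0.0949 and 0.0605). HUA1, HUA3 and HUA4 correlated best with their own number and HUA2 with XZSW3 (0.0458), a hint from the data and not the design. With the replicate block 1482 genes rose and 1594 fell.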

Other observations

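Further gene groups, not described above, are given by their counts in the same edgeR fit. Of 20 ribosomal protein genes 6 fell and none rose (median log2 change -0.57), a count of 3 without HUA3, HUA4, XZSW1 or XZSW2, 18 without HUA1 and 14 with library totals. Of 17 genes of ATF4 and the unfolded protein response 5 fell and none rose (median -0.47), or 3 without HUA3, HUA4, XZSW1, XZSW2 or XZSW3. Of 19 NRF2 antioxidant genes 3 rose and 4 fell, so this list moved both ways. Of 17 androgen-dependent kidney genes 6 rose and 2 fell (median 0.98), and the rises were 11 without HUA2 and 3 without HUA3, XZSW1 or XZSW2. Of 18 genes of fatty acid synthesis and storage 5 rose and 2 fell (median 0.59), and 3 rose without HUA3 or HUA4. The median was 0.18 without XZSW1, the library that was highest for 11 of 12 adipocyte genes. The mean level relative to CTL was 0.51 log2 units in XZSW1, -0.50 to -0.23 in the other XZSW libraries and -0.64 to -0.36 in HUA. The part of adipocyte transcripts was not tested. Lpl, lipoprotein lipase, was at 26.6 to 88.9 CPM in HUA and 136 to 285 CPM in XZSW (log2 change 2.15, SE 0.35, adjusted p = 0.0022). Of 18 circadian clock genes 4 rose and 1 fell, and 1 rose without HUA3, HUA4 or XZSW2. Bhlhe40, a clock repressor, was at 197 to 349.8 CPM in HUA and 63.8 to 135 CPM in XZSW (log2 change -1.22, SE 0.26, adjusted p = 0.0079). The metallothioneins Mt1 and Mt2, which bind zinc and copper, were at 209.7 to 354 and 125 to 359 CPM in HUA and 54 to 108 and 15.4 to 38.4 CPM in XZSW (log2 changes -1.59 and -2.93).

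The remaining lists are given by counts alone, against shares of 7.09% higher and 8.34% lower among all tested genes. Counts of rises and falls were 1 and 4 of 18 in glycolysis, 2 and 1 of 16 in sterol synthesis, 0 and 2 of 12 in heat shock chaperones, 0 and 2 of 13 in glucocorticoid and insulin response, 3 and 2 of 13 in vitamin D, phosphate and iron handling, and 1 and 1 of 10 in EGF receptor ligands and receptors. They were 3 and 0 of 15 in endothelial genes, 1 and 1 of 12 in podocyte genes, 0 and 1 of 13 in antigen presentation, 0 and 1 of 14 in inflammasome genes, 1 and 0 of 8 in B and plasma cell genes, 3 and 0 of 8 in adipocyte genes, and 1 and 0 of 4 in skeletal muscle genes. The risen gene of the muscle list was Pvalb (log2 change 2.16), which is also on the distal convoluted and connecting tubule list. Pvalb reached 50.3 CPM in HUA and XZSW, and no other muscle gene exceeded 1.21 CPM there. No adipocyte gene was called without XZSW1, and no endothelial gene without XZSW3 or XZSW4. In the 8 libraries alone none of the adipocyte, endothelial, B and plasma cell or sterol synthesis genes was called, and 1 ribosomal protein gene fell. None of 4 adrenal cortex genes and none of 5 sex chromosome genes was called by edgeR, 1 and 2 were higher at an unadjusted p under 0.05, and DESeq2 called none and 1.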
